A study of Rattus norvegicus with 10 samples.

Results

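The cholecystokinin, substance P and neurotensin systems are represented here by 6 genes, taken by name from the deposited gene table: the 3 peptide precursor genes *Cck*, *Tac1* and *Nts* and the 3 receptor genes *Cckbr*, *Tacr1* and *Ntsr2*. All 6 have a single row among the 12828 genes of the table, and all are protein-coding. The table covers RNA from the arcuate nucleus (ARC), a nutrient- and hormone-sensing nucleus of the hypothalamus, of 10 Wistar rat dams killed at parturition. Of these, 5 dams ate a 5X-FA diet during pregnancy, with folic acid at 5 times the recommended level, and 5 ate a 5X-MTHF diet, with methylfolate at an equimolar level. Both groups carried the higher folate level, so neither is a group at the recommended level, and all dams were first-time mothers that had gone through a daytime fast before they were killed. The ARC was cut out by hand from frozen slices at approximate stereotaxic coordinates.

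The values below are the authors' average log2 CPM of each gene over all libraries of both diets. CPM is a gene's reads per 1000000 reads counted in a library, a total close to the reads on the genes kept in the table. The 10 columns with values per library carry names that match no dam's label. They were used in no step, so no spread between dams and no difference between the diets is given. Each average pools the 2 diets and cannot show whether a gene's level was alike in both. The methods give an approximate sequencing depth per sample, but the exact depth of each library is not known here. In a tissue homogenate, a level also cannot tell apart a small number of strongly expressing cells from many weakly expressing ones. CPM is not scaled for transcript length, so the order of genes given here is an order of read share and not of the number of transcripts.

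Neuropeptides are cut from precursor proteins, stored in dense-core vesicles and released on firing, and they act on G protein-coupled receptors at some distance. Cholecystokinin is a satiety signal of the gut and also one of the most abundant peptides of the forebrain. Substance P, which comes from *Tac1* together with neurokinin A, is known for its part in pain, stress and vascular responses. Neurotensin lowers food intake when given into the brain and is made by several groups of hypothalamic neurons. The receptors studied here are the main cholecystokinin receptor of the brain (*Cckbr*), the preferred receptor of substance P (*Tacr1*) and the low-affinity neurotensin receptor (*Ntsr2*), which astrocytes express as well as neurons.

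DNA upstream of the annotated start in RefSeq (build GRCr8) was matched by symbol for 5 of the 6 genes. The *Nts* and *Tacr1* stretches are shown because they match a TATA box and sites for factors that answer to cyclic AMP or neuronal activity. Such features are known from many neuropeptide genes. The *Tac1* stretch is shown because it matches an E-box of the form CACGTG, the only form of the E-box searched. Matches anywhere in the 250 bases were counted, whatever their distance from the start. Capitals mark the matches to the motifs searched on both strands, and each run reads 5′ to 3′ on the gene's strand. The 250 bases before the start of *Nts* (GRCr8 chr7:39460889-39461138, minus strand), the 100 bases before that of *Tacr1* (GRCr8 chr4:116478517-116478616, plus strand) and 30 bases of *Tac1* (GRCr8 chr4:36645499-36645528, plus strand) read as follows.
Nts: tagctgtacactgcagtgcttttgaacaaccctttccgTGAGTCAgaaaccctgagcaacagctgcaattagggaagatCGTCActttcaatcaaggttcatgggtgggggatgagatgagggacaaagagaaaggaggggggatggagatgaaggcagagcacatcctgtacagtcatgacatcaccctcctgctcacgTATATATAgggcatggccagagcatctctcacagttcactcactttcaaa
Tacr1: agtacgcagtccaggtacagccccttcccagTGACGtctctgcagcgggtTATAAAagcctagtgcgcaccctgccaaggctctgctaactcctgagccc
Tac1: tggggagagtgtCACGTGgctctccaggct

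The *Nts* window holds an AP-1 site (TGAGTCA) from 212 to 206 bases before the start, which 4.05% of the 33469 promoters of the RefSeq table hold within 250 bases of the start, as do 3.06% of the 9434 genes that have both a level and a promoter. It also holds a half-site of the cyclic AMP response element (TGACG, here as CGTCA) from 171 to 167 bases before the start, a motif found in 18.2% of promoters and 29.0% of those genes. A run of overlapping TATATA matches begins 50 bases before the start. In *Tacr1* the half-site lies from 69 to 65 bases and a TATAAA from 50 to 45 bases before the start. TATAAA or TATATA occurs in 16.1% of promoters and 8.36% of the genes with a level. The *Tac1* window has an E-box (CACGTG, present in 5.59% of promoters and 8.62% of the genes with a level) from 72 to 67 bases before the start, and a half-site from 206 to 202 bases before it, outside the run printed. None of these motifs was matched in the 250 bases before *Ntsr2* or *Cckbr*. The motifs were picked after the windows had been read, and a match is a stretch of letters and not a measured binding site.

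Across these 9434 genes, the presence of these motifs went with small differences in average level. The median was 5.29 log2 CPM for the 2735 genes with a half-site of the cyclic AMP response element and 5.04 for the 6699 genes without it. For the TATA box, the 789 genes that hold one had a median of 4.89 and the 8645 others a median of 5.11. The 289 genes with an AP-1 site had a median of 4.90 and the 9145 others 5.10. With a CACGTG E-box the median was 5.22 (813 genes) and without it 5.09 (8621 genes). *Nts* and *Tacr1*, which hold both the half-site and a TATA box, stood at 5.07 and 2.23 log2 CPM.

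The neurotensin receptor had the highest read share of the 6 genes. *Ntsr2* (ENSRNOG00000049054, Rnor_6.0 chromosome 6 from 41917132 to 41923542) averaged 6.65 log2 CPM, or 100.3 CPM, which placed it at rank 2240 and above 82.5% of the genes in the table. Its ligand gene *Nts* (ENSRNOG00000004179, chromosome 7 from 44111151 to 44121130) averaged 5.07 log2 CPM, or 33.5 CPM. With 52.6% of genes below it, *Nts* stood close to the median of the table, which was 4.94 log2 CPM.

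*Tac1* had the highest read share of the 3 peptide genes. It lies on chromosome 4 of Rnor_6.0 from 33638709 to 33646819 (ENSRNOG00000007374) and averaged 5.98 log2 CPM, or 63.0 CPM, above 71.1% of genes. Its receptor stood at the other end of the order. *Tacr1* (ENSRNOG00000005853), on the same chromosome from 113247795 to 113414504, averaged 2.23 log2 CPM, or 4.68 CPM, the lowest of the 6, with 8.30% of genes below it. *Tacr1* spans 166710 bases of genomic DNA, against 6411 to 10143 bases for the other 5 genes. These spans include introns and were not used to scale a level.

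The cholecystokinin pair lay between these. *Cck* (ENSRNOG00000019321, chromosome 8 from 130120523 to 130127392) averaged 4.76 log2 CPM, or 27.2 CPM, above 46.2% of genes. *Cckbr* (ENSRNOG00000017679, chromosome 1 from 170262156 to 170272298) averaged 3.39 log2 CPM, or 10.5 CPM, above 21.0% of genes. By read share the order from the top was thus *Ntsr2*, *Tac1*, *Nts*, *Cck*, *Cckbr* and *Tacr1*, with 3 genes above the median of the table and 3 below it. Which neighbours in this order, such as *Nts* and *Cck*, differ by more than the spread between animals was not examined, since the columns per library were not used. Together the 6 genes summed to 239 CPM.

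**Figure D1:**
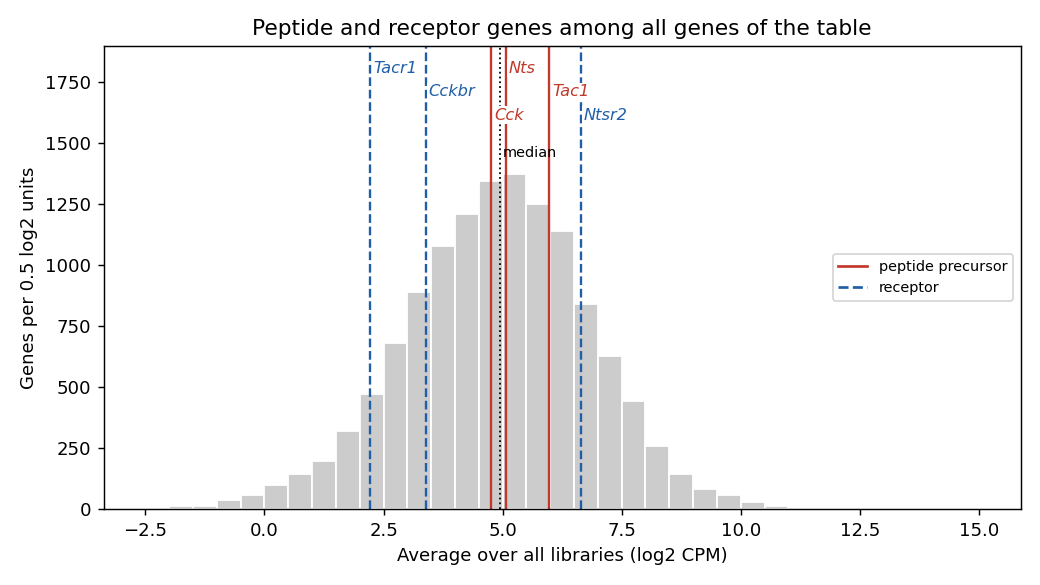
Histogram of the authors' average log2 CPM (x axis) of all 12828 genes in bins of 0.5 (y axis, genes per bin), with a solid red line for each peptide precursor gene, a dashed blue line for each receptor gene and a dotted line at the median. *Tacr1* at 2.23 and *Cckbr* at 3.39 lie on the lower flank, *Cck* and *Nts* beside the median of 4.94, and *Tac1* and *Ntsr2* on the upper flank.

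Other ligands and receptors linked to these peptide systems were mostly low in read share. Of 8 such genes on a list, 5 were found, and their median was 4.05 log2 CPM. *Sort1*, which encodes sortilin, a sorting receptor that also binds neurotensin, was the only one of the 5 above the median of the table, at 8.94 log2 CPM and rank 219. *Tac3*, the precursor of neurokinin B, averaged 4.34 and its receptor gene *Tacr3* 3.87. *Cckar*, the gene of the cholecystokinin receptor best known from the gut and its vagal nerves, averaged 1.98 log2 CPM, with 6.70% of genes below it. The high-affinity neurotensin receptor gene *Ntsr1*, named after its value was seen, averaged 4.05. *Tac4*, *Tacr2* and *Sorl1* were not analysed here.

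Genes of the machinery that matures these peptides had high read shares. Of 8 genes 6 were found, with a median of 8.09 log2 CPM, and 5 of the 6 were above the median of the table. *Cpe*, the carboxypeptidase that trims peptide ends after cleavage, averaged 10.74 log2 CPM at rank 27. *Pam*, the enzyme that amidates the ends of cholecystokinin and substance P, averaged 8.89. The enzymes that sulfate tyrosines, a change that cholecystokinin carries, were the lowest, with *Tpst1* at 5.08 and *Tpst2* at 4.22 log2 CPM. *Pcsk1* and *Pcsk1n* were not analysed here.

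All 8 genes listed for signaling below the receptors were found, 7 of them above the median of the table. The receptors encoded by *Cckbr* and *Tacr1* couple mainly to G proteins of the Gq class, which activate phospholipase C and release calcium. The median of the list was 6.33 log2 CPM. *Itpr1*, the calcium release channel, averaged 8.09 and the phospholipase gene *Plcb1* 7.27, whereas *Gna11*, one of the Gq-class alpha subunits, averaged 5.28 and *Plcb3* 4.08.

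Peptidases that can break these peptides down were intermediate. All 7 were found, with a median of 5.16 log2 CPM, and 4 were above the median of the table. *Tpp2*, known to cleave cholecystokinin, averaged 6.23 and *Ece1*, which cleaves substance P inside endosomes, 6.10. *Ace* averaged 4.77. *Mme*, the gene of neprilysin, which cleaves substance P and neurotensin, was the lowest of the list at 3.49 log2 CPM, with 22.6% of genes below it.

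**Figure D2:**
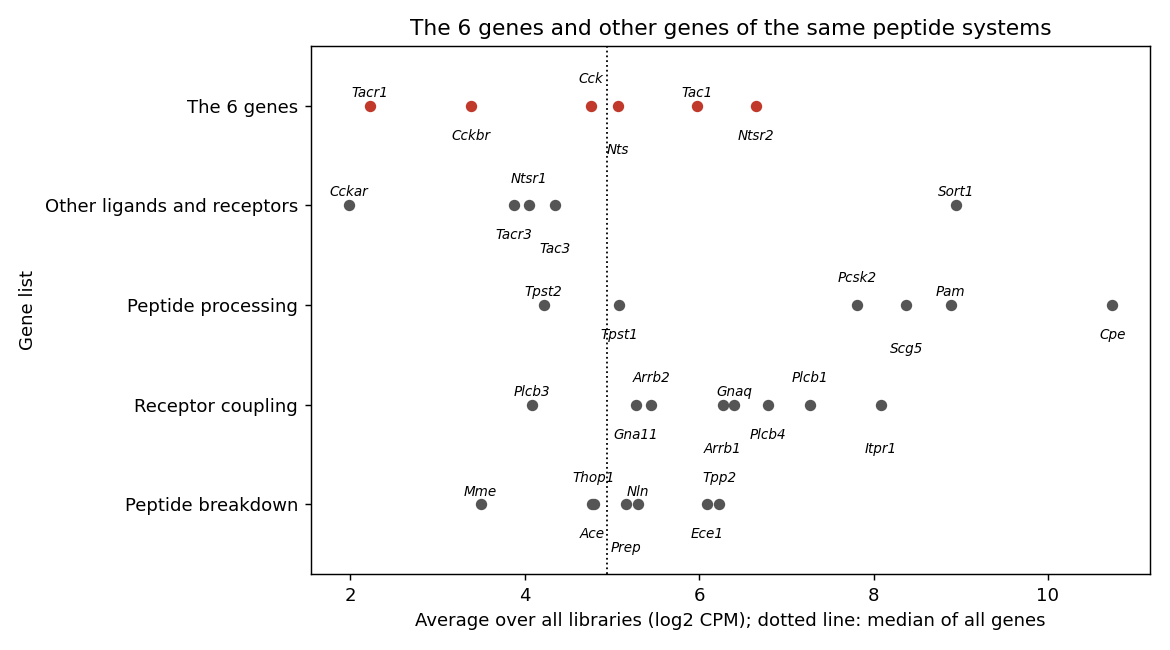
Average log2 CPM over all libraries (x axis) of the 6 genes (top row, red) and of 4 lists of genes from the same peptide systems (grey), 1 point per gene, with a dotted line at the median of all genes. Processing genes reach 10.74 log2 CPM, whereas 4 of the 5 other ligand and receptor genes found lie below the line.

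The label of the tissue was set beside marker genes, since a peptide gene's level in a hand-cut sample depends on the cells it holds. All 5 neuron markers and all 5 astrocyte markers were found and above the median of the table, with list medians of 8.80 and 9.62 log2 CPM. The oligodendrocyte markers, genes of myelin, had the highest median, 11.19 log2 CPM over all 4. The 4 microglial and the 2 endothelial markers found had medians of 4.32 and 6.03. Of the 3 markers of tanycytes, the glia that line the third ventricle beside the ARC, *Crym* and *Col25a1* averaged 5.53 and 5.42, and *Rax* 0.08. Of 8 ARC markers 6 were found, with none above the median of the table. *Pomc*, the satiety-peptide precursor that defines an ARC neuron class, averaged 4.67 log2 CPM, *Agrp*, which defines the opposing hunger class, 1.42, and *Kiss1*, a peptide gene of ARC neurons that drive reproductive hormones, 0.08. *Npy* and *Nr5a2* were not analysed here. Several markers of other regions were present at higher read shares, although *Neurod6* and *Tbr1* of the cortical list averaged 2.40 and 3.34 log2 CPM, *Lef1* of the thalamic list 3.19 and *Adora2a* of the striatal list 4.26, all under *Pomc*. In reads, not scaled for length, the 4 cortical and hippocampal markers found summed to 338 CPM, the 6 striatal markers to 344 CPM and the 4 thalamic ones to 347 CPM, against 56.9 CPM for the 6 ARC markers. Single genes carried much of these sums. *Slc17a6*, a glutamate transporter gene that hypothalamic neurons also express, made up 272 CPM of the thalamic sum, and *Nrgn* and *Slc17a7* made up 178 and 144 CPM of the cortical one. *Cck* and *Cckbr* are known to be expressed in the cerebral cortex and *Tac1* in the striatum, and *Drd1*, which marks the striatal neurons that make substance P, averaged 5.01 log2 CPM. Whether the reads of *Cck*, *Cckbr* and *Tac1* came from ARC cells or from tissue outside the ARC, and in what shares, was not tested.

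**Figure D3:**
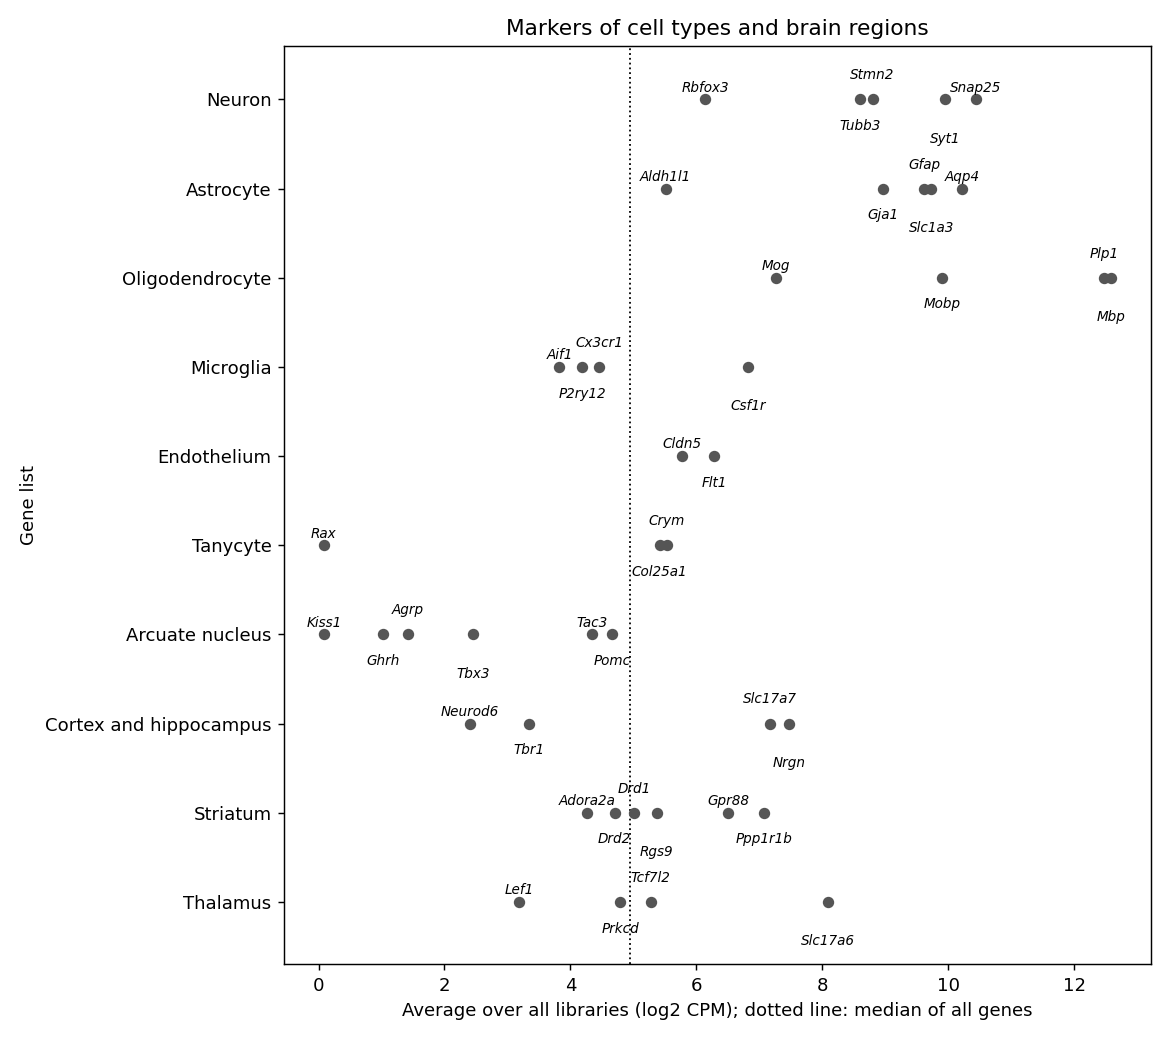
Average log2 CPM over all libraries (x axis) of the marker genes found for 10 cell types and brain regions (rows), 1 point per gene, with a dotted line at the median of all genes. The 6 ARC markers lie between 0.08 and 4.67 log2 CPM, all below the median of 4.94, and the 6 striatal markers between 4.26 and 7.07.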

How the data were processed

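RNA-seq was carried out by the authors on the ARC of 10 dams, 5 per diet. Per the labels and the methods, poly-A selected libraries were trimmed with Trim Galore 0.5.0, aligned to Rnor_6.0 with STAR 2.6.0c, and HTSeq 0.6.1p2 assigned the reads to Ensembl gene models. The authors deposited 1 filtered table with an average log2 CPM per gene over all libraries, which is the only measurement used. The tool that made it is not given in the sources used here. Its antilogs sum to 1002152 CPM, as a scale of reads per library total has to, which settles the log base at 2. The table further holds the authors' own comparison of the diets (fold changes, F statistics and p-values), which was not used, and 10 columns of values per library, FPKM by the table's name, whose headings match no label and which were not used either. The test of the diets that had been planned, limma on values per dam with 5X-FA as the reference, was therefore not run.

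Each gene's percentile is the percentage of all 12828 rows with a lower average. Symbols were matched exactly, then by RefSeq synonym. Of each list of related genes, the 2 highest and 2 lowest are named. The 6 genes and all lists were chosen with earlier results of these data known. Promoters are from RefSeq, build GRCr8, and gene coordinates from the deposited table, on Rnor_6.0. The counting of ranks and percentiles was checked on a shuffled list of known order. That check does not bear on how reliable the order of the genes is. Python 3.11.15 with numpy 2.4.6, pandas 2.3.3 and matplotlib 3.10.9 was used.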

Additional observations from a re-analysis of the deposited data

How the results depend on the processing

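The percentiles fell slightly when fewer rows were ranked, and the order of the 6 genes is fixed by their averages. Among the 12383 protein-coding genes only, *Ntsr2* stood at 82.1, *Tac1* at 70.4, *Nts* at 51.3, *Cck* at 44.7, *Cckbr* at 19.2 and *Tacr1* at 6.67. Dropping rows that averaged under 1 log2 CPM left 12462. The values were then 82.0, 70.3, 51.2, 44.6, 18.7 and 5.61 in the same order. The fall at this second setting was fixed in advance, since all 6 genes average more than 1 log2 CPM. Levels per coding length were not run, since the gene tables used here give no transcript lengths and the columns per library, FPKM values by the table's name, were not used. A long transcript draws more reads at the same number of molecules. No paired analysis was possible because the columns with values per library carry no name that matches a dam. Those columns were left out of every step, so other pseudocounts, a filter on low values, centring and fits without 1 dam were not run either, and no error of an average is given.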
